A study of Rattus norvegicus with 6 samples.

Results

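The 10 genes described here encode ligands, receptors, a transducer and a feedback inhibitor of interleukin-6 (IL-6) family signalling: Il6, Il11, Lif, Cntf, Il6r, Il6st, Lifr, Osmr, Stat3 and Socs3. They were found by exact symbol in a table of 32883 gene rows. All 10 had a row, and all 10 were among the 17315 genes tested. The group was chosen by gene family with the difference between stimulated and control libraries already known. That difference is therefore given for these genes as a description, without p-values.

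The libraries were made from polyadenylated RNA of hippocampal neuron cultures from Wistar rat pups (postnatal day 0), grown on poly-D-lysine and laminin. Long-term potentiation was induced chemically (cLTP) in 3 cultures between day 13 and day 15 in vitro, and the other 3 were given solvent (DMSO) in equal amount. The cLTP mixture was 50 µM forskolin, 50 nM rolipram and 200 µM picrotoxin, dissolved in DMSO, and the labels do not state how long after it the cells were harvested. Forskolin activates adenylyl cyclase, rolipram inhibits phosphodiesterases that degrade cyclic AMP, and picrotoxin blocks GABA-A receptors. Values are the authors' normalised read counts, and folds come from a limma fit on log2(value + 1) across all tested genes, called at a Benjamini-Hochberg adjusted p under 0.05. Culture numbers are the replicate numbers in the library titles. The labels do not say that same-numbered libraries share a culture.

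IL-6 family cytokines bind receptor complexes that contain gp130, the shared signalling chain encoded by Il6st. Bound gp130 activates JAK kinases, which phosphorylate the transcription factor Stat3. Stat3 then induces Socs3, an inhibitor that binds gp130 and JAK and limits the signal. Il6r and the Il11 receptor are the specific chains that gp130 pairs with for IL-6 and IL-11, whereas LIF and CNTF signal through gp130 paired with Lifr, and oncostatin M through gp130 paired with Osmr or Lifr. In the brain, LIF and CNTF are known to act on astrocytes and on neuron survival, and IL-6 can be made by astrocytes, microglia and neurons.

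The libraries held 10668973 to 12776185 reads assigned to genes, at which depth 3 reads corresponded to a normalised count of 2.63 to 3.38. Markers of neurons (8 of 8 detected in every library, summed count 57730 to 73410) and astrocytes (8 of 8, 122500 to 198900) were present in all libraries, as were their defining genes such as Gfap. The summed microglial markers stood apart in culture 3. The 11 markers in the table summed to 1030 in DMSO 3 and 1054 in cLTP 3 and to between 48.5 and 62.8 in the other 4 libraries, where Aif1 and Cx3cr1 were at 0. Tmem119 did not follow in DMSO, at 10.5 in DMSO 1 and 7.88 in DMSO 3. Each other marker was highest in culture 3 of both groups, though P2ry12 reached only 9.85 in DMSO 3 and 8.14 in cLTP 3. Astrocyte markers were lowest in culture 3 of both groups, at 122500 (DMSO) and 141800 (cLTP), against 186600 to 198900 elsewhere. Results whose call changed without culture 3 are therefore also given without it.

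After cLTP, 4 of the 10 genes rose (Il6, Il11, Stat3 and Socs3) and 1 fell (Lifr), while Lif, Cntf, Il6r, Il6st and Osmr did not pass the threshold. Over all tested genes 9.02% were called, 5.71% higher and 3.31% lower. The 2 groups of libraries did not overlap for 6 of the 10 genes (the 5 called and Lif), against 28.2% of all tested genes. The median log2 fold change was 0.61 over the 10 genes and 0.00 over all tested genes. Because the group was chosen with this contrast known, nothing is read from these counts. With the culture number as a block, 7 of the 10 were called, with Lif and Osmr added as higher, against 23.5% of all tested genes.

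**Figure D1:**
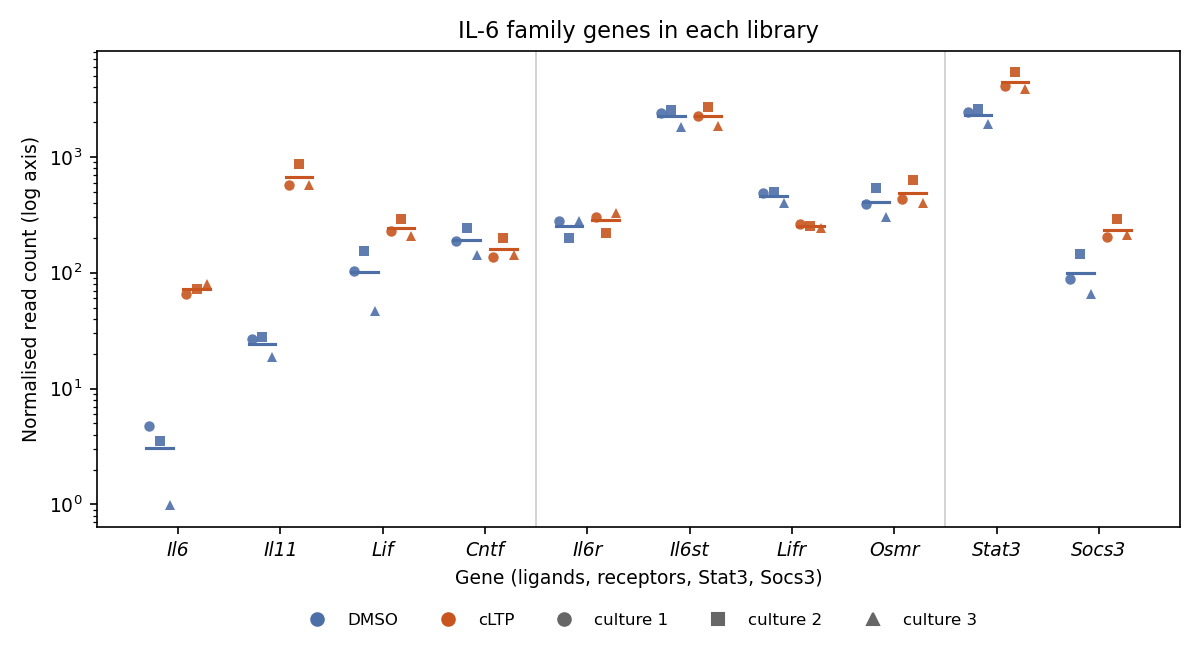
Normalised read count (log axis) of the 10 genes in each library, with DMSO in blue, cLTP in orange, 1 symbol per culture and the group mean as a line. All cLTP libraries lay above all DMSO libraries for Il6, Il11, Lif, Stat3 and Socs3 and below them for Lifr.

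Il6 and Il11, the cytokines with the largest differences among the 10 genes, differ in the motifs just upstream of their starts. Their 250 bases upstream of the annotated start are shown together with those of Lifr, the receptor gene that fell. Capitals mark every match to a searched motif. Sequences are from RefSeq on build GRCr8, 5′ to 3′ on the gene's strand: Il6 at chr4:5894576-5894825 (minus strand), Il11 at chr1:78098372-78098621 (plus strand) and Lifr at chr2:57963139-57963388 (plus strand).
Il6: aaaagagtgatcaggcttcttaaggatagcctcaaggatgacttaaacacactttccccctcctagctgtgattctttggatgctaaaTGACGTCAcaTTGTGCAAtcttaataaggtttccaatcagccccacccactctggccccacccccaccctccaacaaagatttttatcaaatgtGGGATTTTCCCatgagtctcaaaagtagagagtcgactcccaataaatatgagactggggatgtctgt
Il11: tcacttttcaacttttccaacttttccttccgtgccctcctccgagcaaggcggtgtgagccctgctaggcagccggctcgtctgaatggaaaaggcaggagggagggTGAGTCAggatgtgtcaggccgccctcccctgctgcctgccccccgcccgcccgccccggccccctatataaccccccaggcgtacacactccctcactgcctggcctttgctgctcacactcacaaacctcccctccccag
Lifr: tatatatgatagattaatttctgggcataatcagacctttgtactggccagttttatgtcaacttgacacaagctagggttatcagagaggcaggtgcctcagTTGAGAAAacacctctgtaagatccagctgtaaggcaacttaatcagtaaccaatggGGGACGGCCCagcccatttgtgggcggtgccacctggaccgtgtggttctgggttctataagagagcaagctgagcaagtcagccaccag

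The motifs, searched on both strands, were the cyclic AMP response element TGACGTCA and its core TGACG, AP-1 as TGANTCA, STAT as TTCNNNGAA, C/EBP as TTNNGNAA, and NF-kB as GGGA and CC with 4 bases between. Each full element also contains the core on both strands, so these matches overlap. The Il6 window held a full cyclic AMP response element from 162 to 155 bases upstream of the start, a C/EBP match beginning 152 bases upstream and 2 overlapping NF-kB matches on opposite strands, beginning 68 and 67 bases upstream. A full element was present in 1.59% of 33469 rat promoter windows of this length, the core in 18.2%, the C/EBP motif in 37.2% and the NF-kB motif in 16.4%. Il11 held a single match, to AP-1, beginning 142 bases upstream, and 6.34% of all windows held that motif. Lifr held 1 C/EBP and 1 NF-kB match. Of the 9 genes with a window (all but Lif), the full element was found in 1 (Il6), the core in 2 (Il6 and Il6r), AP-1 in 3 (Il11, Cntf and Osmr), C/EBP in 5 and NF-kB in 2. The STAT motif was found in 0 of the 9 and in 7.67% of all windows. The Stat3 and Socs3 windows held none of the 6 motifs. A match is a description of the letters only. The windows were placed by the annotated start, and whether that start was the one used in these cultures was not checked. A window without a match therefore does not show that the gene lacks the site.

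Among the ligands, Il6 was near the detection limit in control cultures and rose after cLTP. In DMSO 1, 2 and 3 its normalised counts were 4.76, 3.51 and 0.985, which correspond to 5, 4 and 1 reads. In cLTP 1, 2 and 3 they were 65.4, 72.5 and 80.4, from 58, 70 and 79 reads. All stimulated libraries (72.8 ± 7.5, SD, n = 3) lay above all controls (3.08 ± 1.92), and the stimulated cultures lay close together. Il6 differed by a log2 fold change of 4.30 ± 0.39 (SE), and the ratio of the same-numbered cultures ran from 13.7 in culture 1 to 20.7 in culture 2 and 81.6 in culture 3. The highest ratio was that of culture 3, whose control had 1 read. With a pseudocount of 5 in place of 1 the log2 fold change was 3.29. Without culture 3 of both groups, where the summed microglial markers were high, Il6 was still called, with a log2 fold change of 3.78.

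Il11, a cytokine known for its part in haematopoiesis, fibrosis and bone turnover, had the largest fitted fold of the 10 genes, although Il6 had the larger ratio in culture 3. Its normalised counts were 26.6, 28.1 and 18.7 in DMSO 1 to 3 and 567, 860 and 568 in cLTP 1 to 3. The log2 fold change was 4.70 ± 0.21 (SE). The 3 cultures gave similar ratios of 21.3, 30.6 and 30.3, and the estimate lay between 4.50 and 4.81 when any single library was left out.

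Lif, which encodes leukaemia inhibitory factor, was at 104, 155 and 46.3 in DMSO 1 to 3 and at 229, 293 and 209 in cLTP 1 to 3. The groups did not overlap, but the controls spread over a wider range than the stimulated cultures, with DMSO 3 lowest. The log2 fold change of 1.40 ± 0.38 (SE) did not pass the threshold in the fit without a block. It passed with the culture number as a block, with the same estimate. It also passed in DESeq2 (1.26), without DMSO 2 (1.78), without DMSO 3 (0.92) and without culture 3 of both groups (1.03). The ratio was 2.21 in culture 1, 1.90 in culture 2 and 4.51 in culture 3.

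Cntf, which encodes ciliary neurotrophic factor, a product of astrocytes and Schwann cells, did not pass. It was at 189, 244 and 141 in DMSO 1 to 3 and at 136, 198 and 143 in cLTP 1 to 3. The groups overlapped, and the 95% interval of the log2 fold change (-0.25) ran from -0.74 to 0.25. Changes within that range were compatible with these values.

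**Figure D2:**
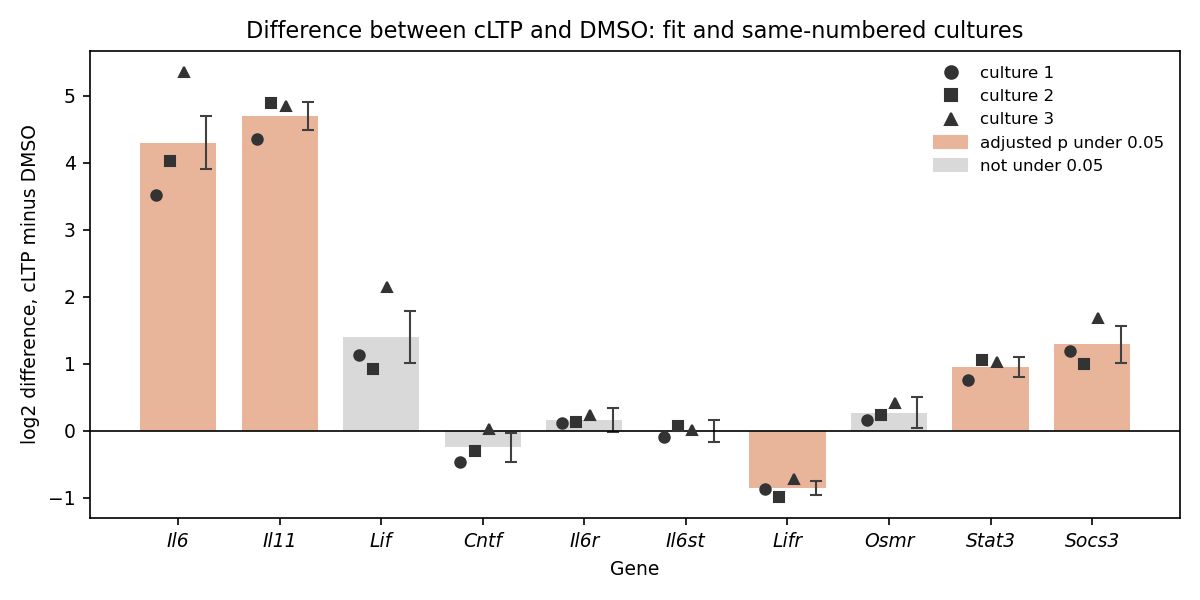
Log2 difference between cLTP and DMSO for each gene, as the limma estimate (bar, coloured where called) with its standard error and as the difference within each same-numbered culture (symbols). Il6 and Il11 lay above 3.5 in every culture, Lifr below -0.7 in every culture, and Il6st near 0.

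Of the receptors, only Lifr passed the threshold, and it fell. Lifr encodes the chain that pairs with gp130 for LIF and CNTF. Its normalised counts were 486, 501 and 400 in DMSO 1 to 3 and 265, 253 and 242 in cLTP 1 to 3. No stimulated library reached the lowest control, and the stimulated cultures lay close together (253 ± 11.4, SD, n = 3, against 462 ± 54.8 in DMSO). This was a log2 fold change of -0.86 ± 0.11 (SE), with ratios of 0.545, 0.505 and 0.606 in cultures 1, 2 and 3. In RNA from whole cultures, fewer cells of a type and less RNA per cell cannot be told apart. Of the 8 astrocyte markers 0 were called in limma, edgeR or DESeq2 and 0 had an unadjusted p under 0.05 in limma. With the block 4 were called, 3 higher and 1 lower. Over all tested genes 9.02% were called in limma without the block and 23.5% with it. The 8 astrocyte markers summed to 122500 to 191400 in DMSO and 141800 to 198900 in cLTP. Among 7 markers of mural cells and fibroblasts, 1 was called, Pdgfrb, which fell from between 267 and 376 to between 66.1 and 113, and the list summed to 1536 to 1724 in DMSO and 1352 to 1449 in cLTP. Without Pdgfrb the other 6 markers summed to 1269 to 1365 in DMSO and 1286 to 1345 in cLTP, and these ranges overlapped. Their part in the fall of Lifr was not tested.

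Il6st, the gp130 chain itself, was at 2395, 2538 and 1825 in DMSO 1 to 3 and at 2248, 2677 and 1840 in cLTP 1 to 3. The groups overlapped, and the estimated log2 fold change of 0.00 had a 95% interval from -0.37 to 0.37. Il6r, the specific chain for IL-6, was at 280, 201 and 280 in DMSO and 302, 221 and 328 in cLTP (log2 fold change 0.16, 95% interval from -0.25 to 0.57). Its groups overlapped too.

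Osmr, the oncostatin M receptor chain, was at 389, 537 and 300 in DMSO 1 to 3 and at 435, 630 and 402 in cLTP 1 to 3. The groups overlapped, but within each same-numbered culture the stimulated library was higher, by ratios of 1.12, 1.17 and 1.34. Its log2 fold change of 0.27 ± 0.23 (SE) did not pass without a block and passed with the culture number as a block.

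Stat3, the transcription factor activated by gp130, was higher in every stimulated culture. Its normalised counts were 2418, 2578 and 1910 in DMSO 1 to 3 and 4102, 5353 and 3877 in cLTP 1 to 3, without overlap. The log2 fold change was 0.95 ± 0.15 (SE), with ratios of 1.70, 2.08 and 2.03 in cultures 1, 2 and 3. These are transcript levels, and the phosphorylation that activates the protein was not measured.

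Socs3, the feedback inhibitor, was at 88.5, 144 and 65.0 in DMSO 1 to 3 and at 203, 288 and 212 in cLTP 1 to 3. The lowest stimulated culture lay above the highest control. The log2 fold change was 1.29 ± 0.27 (SE), and the ratio was 2.29, 2.00 and 3.26 in cultures 1, 2 and 3. Socs3 was not called when DMSO 1 (log2 fold change 1.25), cLTP 1 (1.38) or cLTP 2 (1.13) was left out.

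In 7 of the 10 genes (Il11, Lif, Cntf, Il6st, Osmr, Stat3 and Socs3) culture 2 was the highest in both groups, and this held for 17.5% of the 17315 tested genes; the choice of the genes did not use this spread. The full order was shared by both groups in 4 of the 10 genes (Lif, Il6st, Osmr and Stat3), near the share among all tested genes (32.0%). Socs3 deviated from its group mean by 0.61 (log2) in DMSO 2 and 0.32 in cLTP 2, and Osmr by 0.43 and 0.39. Il6r went the other way and was lowest in culture 2 of both groups, by -0.32 and -0.34. Culture 3 was the lowest in both groups in 5 of the 10 genes (Lif, Il6st, Lifr, Osmr and Stat3) and in 23.7% of all tested genes. For Il6 and Lifr culture 2 was neither the highest in both groups nor the lowest in both. In Il6, culture 3 was lowest among the controls and highest among the stimulated cultures, and in Lifr culture 2 was highest in the controls and culture 1 in cLTP. Astrocyte markers summed to 191400, 186600 and 122500 in DMSO 1 to 3 and to 189800, 198900 and 141800 in cLTP 1 to 3, so culture 3 was lowest in both groups, while culture 2 was highest in cLTP alone. Their part in these differences was not tested, and genes within a library are not independent replicates.

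**Figure D3:**
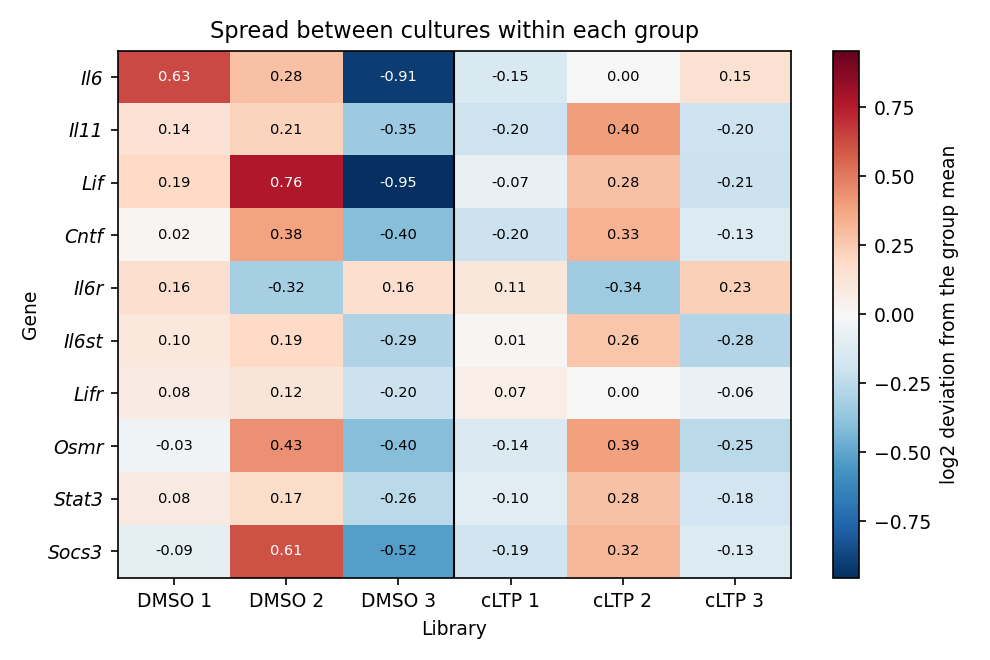
Deviation of each library from its group mean (log2 scale, red above and blue below) for the 10 genes. Culture 2 was above its group mean for Lif, Osmr and Socs3 in both groups, and Il6r was below it.

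Beyond these 10 genes, 63 other genes of the pathway were tested, and 11 passed, 9 higher and 2 lower. Their median log2 fold change was 0.03. The share called was 11 of 63, beside 9.02% of all tested genes. These lists too were chosen with earlier results of these data known. Nothing is therefore read from the counts per list, here or below, and the adjusted p-values describe single genes. With the culture number as a block, 14 were higher and 5 lower, beside 23.5% of all tested genes called in either direction.

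Of 5 tested ligands outside the group, 0 passed in limma or edgeR, 1 passed in DESeq2 (Clcf1) and 1 had an unadjusted p under 0.05 in limma. Beside these and the receptor chains below, limma called 9.02% of all tested genes without the block and 23.5% with it. Clcf1, a cytokine that also signals through the CNTF receptor, was at 98.0, 140 and 70.9 in DMSO 1 to 3 and at 145, 270 and 204 in cLTP 1 to 3. All stimulated libraries were above all controls, with a log2 fold change of 1.01 ± 0.28 (SE) and a limma adjusted p of 0.0695, or 0.000215 with the culture number as a block. It was also called in DESeq2 (0.00833) and without DMSO 2 (0.0365). Its ratio was 1.48, 1.94 and 2.87 in cultures 1, 2 and 3, and it was not called without culture 3 of both groups (log2 fold change 0.76, limma adjusted p = 0.288). Osm, the ligand of Osmr, had at most 2 reads in any library and was not tested. Of 4 other receptor chains, Cntfr, the CNTF-binding chain, rose from 1181 ± 58.1 to 1584 ± 152 (SD, n = 3; 1.34-fold, limma adjusted p = 0.0191). The Cntfr call was lost when DMSO 1, DMSO 2, cLTP 1 or cLTP 2 was left out (adjusted p from 0.0533 to 0.0944) and after quantile normalization (0.0631), and kept it with the block (1.54e-05).

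Stat3, which rose, is described above and is not counted in the next lists. Among 4 JAK kinases, 5 other STAT factors, 5 adaptors to the RAS-ERK pathway and 2 receptor sheddases, 0 passed in limma, edgeR or DESeq2. Over all tested genes 9.02% passed in limma. In these lists 2 genes had an unadjusted p under 0.05 in limma (Jak2 and Adam10). With the block 2 were called, beside 23.5% of all tested genes. Jak2, a kinase bound to gp130, was at 1512 ± 96.4 and 1758 ± 172 (limma adjusted p = 0.217; called higher with the block, 0.00816). Ptpn11, the phosphatase that links gp130 to RAS, was at 3031 ± 210 and 3211 ± 229 (limma adjusted p = 0.672). Adam10, a protease that can shed the IL-6 receptor, was at 792 ± 40.6 and 666 ± 12.7 (limma adjusted p = 0.0794). It was called lower with the block (0.00554), under equal library totals (0.0121), after quantile normalization (0.0246) and without culture 3 of both groups (0.0427).

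Of 14 SOCS, PIAS and phosphatase genes, 1 passed, beside 9.02% of all tested genes (23.5% with the block). It was Pias3, which encodes a protein inhibitor of activated Stat3 and fell from 422 ± 21.0 to 306 ± 11.0 (SD, n = 3; 0.728-fold, limma adjusted p = 0.00994). Pias3 lost its call without DMSO 2 (adjusted p = 0.0515) or cLTP 1 (0.0534). With the block 2 more were called, both named after their values were seen: Socs2, a feedback inhibitor of growth hormone signalling, higher (180 ± 15.8 and 224 ± 14.7, limma adjusted p = 0.128 without the block and 0.0192 with it), and Pias1, a relative of Pias3, lower (357 ± 14.8 and 295 ± 28.6, 0.14 and 0.0252). Pias1 was also called under equal library totals (0.0383). Socs1, also named after its values were seen, had the lowest log2 fold change of the list (-0.71; 29.8 ± 7.69 and 17.7 ± 3.92). It was called in neither fit (limma adjusted p = 0.175 without the block and 0.05025 with it). Pias3, Socs2, Pias1 and Socs1 were the 4 genes of this list with an unadjusted p under 0.05 in limma. Whether Socs3 differed from the other SOCS genes in its change was not tested.

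Regulators of Il6 mRNA stability changed in both directions, with 4 of 6 past the threshold. Over all tested genes 9.02% passed, or 23.5% with the block. Arid5a, which is known to stabilise Il6 mRNA, rose from 412, 404 and 338 in DMSO 1 to 3 to 1650, 1743 and 1185 in cLTP 1 to 3 (3.92-fold, limma adjusted p = 7.96e-05). Zc3h12a encodes regnase-1, an endonuclease that degrades Il6 mRNA, and rose from 46.8 ± 9.02 to 102 ± 6.92 (2.18-fold, limma adjusted p = 0.00462). Zfp36l1, an RNA-binding protein that promotes decay of AU-rich mRNAs, rose from 783 ± 250 to 1571 ± 293 (2.06-fold, limma adjusted p = 0.0337), while Rc3h1, which encodes roquin-1, fell from 728 ± 39.1 to 576 ± 40.8 (0.791-fold, limma adjusted p = 0.039). Of the destabilising genes called, 2 were therefore higher and 1 lower. With the block Zfp36, a further decay factor, was also called, at 295 ± 138 and 357 ± 103 (log2 fold change 0.35, limma adjusted p = 0.695 without the block and 0.0226 with it). Zfp36l1 lost its call without DMSO 1, cLTP 1 or cLTP 2 (adjusted p from 0.0678 to 0.114) and with no filter on low values (0.0737). For Rc3h1 the call was lost when DMSO 1, DMSO 2, cLTP 1 or cLTP 3 was left out (0.103 to 0.162).

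**Figure D4:**
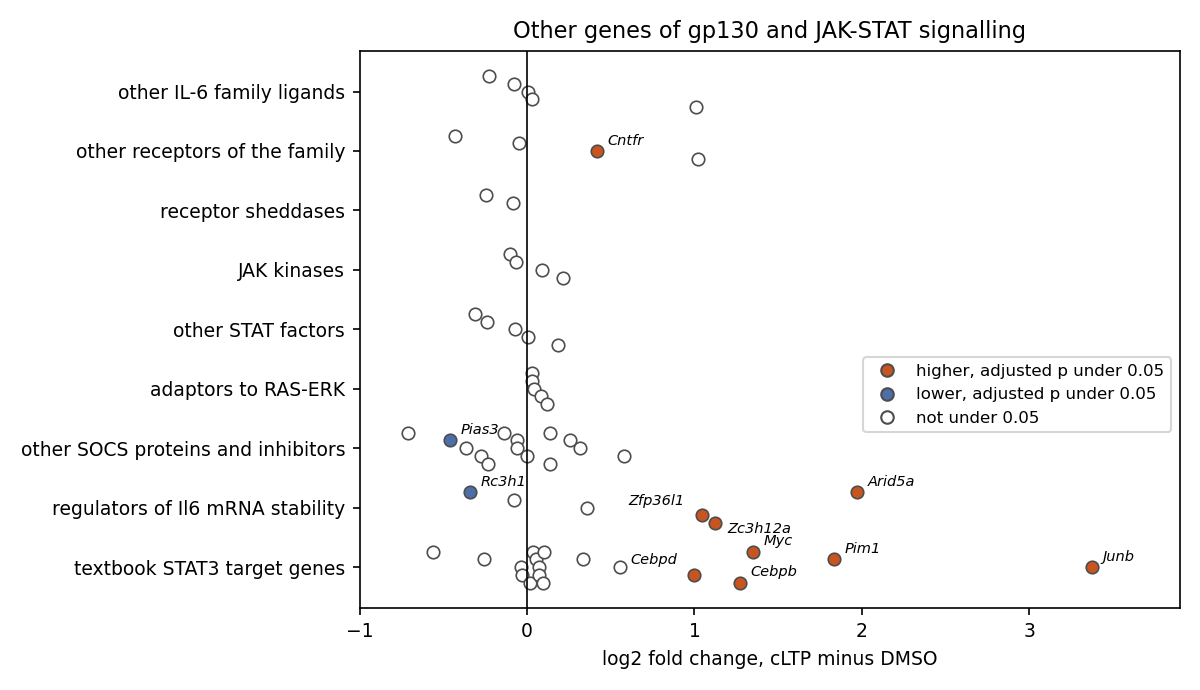
Log2 fold change (cLTP minus DMSO) of the 63 other tested pathway genes by list, with 1 point per gene and filled points where the adjusted p was under 0.05. The 11 called genes were in 4 of the 9 lists, and the JAK, STAT and adaptor lists stayed between -0.31 and 0.21.

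Of 18 textbook Stat3 target genes, 5 passed, all of them higher, and with the block 7 passed, 6 higher and 1 lower. The shares of all tested genes were 9.02% without the block and 23.5% with it. Junb, an AP-1 subunit, rose from 939 ± 228 to 9571 ± 866 (10.4-fold, limma adjusted p = 1.02e-05), and Pim1, a kinase that promotes survival, from 117 ± 15.2 to 416 ± 17.5 (3.57-fold, limma adjusted p = 2.1e-05). The other 3, named after their values were seen, were the transcription factor genes Cebpb (2.41-fold), Myc (2.55-fold) and Cebpd (1.99-fold). Myc lost its call without cLTP 2 (limma adjusted p = 0.0593), and Cebpd without DMSO 1, DMSO 3, cLTP 1 or cLTP 2 (0.0943 to 0.137), without culture 3 of both groups (0.241) and with no filter on low values (0.0894). The list is not specific to Stat3, since cyclic AMP and neuronal activity are known to induce Junb, Pim1 and Cebpb as well. What raised these genes here was not tested. The block added Timp1, a metalloproteinase inhibitor, higher (661 ± 198 and 953 ± 188, limma adjusted p = 0.207 without the block and 0.00039 with it), and Bcl2l1, an inhibitor of apoptosis, lower (996 ± 43.2 and 834 ± 45.3, 0.0786 and 0.00216). Bcl2l1 was also called under equal library totals (0.0126) and after quantile normalization (0.0212). The other 11 were called in neither fit, among them Gfap, the astrocyte filament gene and a Stat3 target in reactive astrocytes. It was at 101500, 96720 and 62520 in DMSO 1 to 3 and at 98350, 98460 and 68070 in cLTP 1 to 3, with overlapping groups. The median log2 fold change over the 18 genes was 0.08.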

How the data were processed

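Strand-specific mRNA libraries from 3 cLTP and 3 DMSO cultures were analysed. The labels name no litters or days behind the biological replicates, and p-values therefore reflect only how these cultures varied, which may be partly technical. Part of the labels' library protocol names sorted cells of operated animals and does not match the cultures. The tools named, per the submitters' processing notes, are bcl2fastq, STAR and DESeq2, with build rn6. Versions, counting tool, strand setting and annotation are not stated there, so reads shared between overlapping genes could have been assigned in unknown ways.

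The deposited values are a signal per gene: counts of reads over 1 size factor for each library, with no division by gene length, so levels were not compared between genes. Whole reads were recovered by dividing by the value of a single read (0.878 to 1.13), and 100% of values came out whole within 0.01. Limma 3.58.1 in R 4.3.3 (trend, robust) was fitted to log2(value + 1) for genes with a mean of at least 1, two-sided, with Benjamini-Hochberg adjustment over all of them. Count tests on recovered reads (edgeR 4.0.16, DESeq2 1.42.0) called 1627 and 1642 genes and limma 1561. Limma with and without the block, edgeR and DESeq2 were tested on simulated counts. The simulated counts held no difference shared by same-numbered libraries, so they cannot show how the block acts where there is one.

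Same-numbered libraries deviated together (correlations 0.22, 0.30 and 0.54 across genes), above the limit of 0.1. Cultures 1 and 2 of different number also passed that limit (0.16 and 0.19), and culture 3 stood apart from both (-0.38 to -0.29). The limit therefore cannot show that the numbers pair cultures 1 and 2, and the labels do not state any pairing. The block was fitted only as an alternative, and calls made with it alone depend on a pairing that was not established.

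The 10 genes and all lists were chosen with earlier results of these data known. Of the other pathway genes, 65 were in the table and 63 were tested; Mcl1, Serpina3n, Stat4 and Il31 were not analysed here. From each list the text names up to 2 higher and 2 lower called genes of lowest p, all called genes where a list has at most 4, or the gene of lowest p where none was called; exceptions are stated, and 1 gene this rule named is not reported here. Promoter windows are from RefSeq (GRCr8), where 9 of the 10 genes matched by symbol.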

Additional observations from a re-analysis of the deposited data

How the results depend on the processing

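Each alternative within limma changed 1 choice, whereas edgeR and DESeq2 also changed the scale and the genes tested. Among the 10 genes, 5 were called under equal library totals, quantile normalization, pseudocounts of 0.5 or 5, both filters and edgeR, 6 under DESeq2 and without culture 3 of both groups, 7 with the replicate block, and 4 to 6 when 1 library was left out. Over all genes the block moved the count from 1561 to 4075, and leaving out 1 library gave 953 to 1408. For the 63 other pathway genes the block gave 19 calls and leaving out 1 library 6 to 10. It was 7 without DMSO 1, 6 without cLTP 1 and 7 without cLTP 2. Equal totals shifted the median log2 fold change of all genes to -0.11, and the split of calls from 988 higher and 573 lower to 823 and 1322; the quantile split was 897 and 799. The 5 called genes kept their direction under all of these settings. Estimates not called without the block changed sign: Il6st was 0.0015 under DESeq2 and ranged from -0.15 to 0.14 without 1 library, Il6r from -0.0005 to 0.33, Zfp36 from -0.079 to 0.67, and Ptpn11 was -0.034 under equal totals and -0.074 after quantile normalization. Of the 19 pathway genes called with the block, 11 were also called without it and 8 were not. Other changes of single calls stand beside the genes in the text, and the causes were not tested. Depth limits Il6 in the controls most, at 1 to 5 reads per library.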

Other observations

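Over the 6 libraries, log2(value + 1) of Il6 was compared with that of 10907 genes with a mean of at least 50 and an established symbol. Rows with clone or placeholder names were left out. The genes that followed Il6 most closely were Ifrd1, Map3k2, Usp37, Fos and Sphk1, with Pearson coefficients of 0.996 or above. Ifrd1 went from a mean of 1037 in DMSO to 3313 in cLTP, and Fos from 839 to 11870. For Socs3 they were Tm9sf2, St3gal1, Rpl4, Rpl10a and Rpl23, with smaller differences between the groups (1.12-fold to 1.22-fold). These coefficients are descriptions over 6 libraries that fall into 2 groups and share culture numbers, and the genes were the closest of about 10907 compared.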
